A study of Homo sapiens with 21 samples.

Results

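HMLE cells after 7 days of TGFβ were compared with the same cells after 4 days, gene by gene. HMLE is a line of human mammary epithelial cells immortalized in culture. The comparison took the 13365 of 23201 gene symbols whose normalized read count averaged at least 10 over 6 libraries, 3 from day 4 (d4) and 3 from day 7 (d7). These 6 libraries belong to a bulk RNA sequencing time course of 21, with 3 libraries each from untreated cells (d0) and from cells given TGFβ for 1, 4, 7, 10, 15 or 20 days. Wells were seeded at 1 starting density, and the cells of both groups differed by label only in the length of treatment, so every d4 and d7 cell had received TGFβ. The samples are biological triplicates of a single cell line. No untreated culture kept for as long as the treated ones was among them, so days of TGFβ and days in culture cannot be told apart. In a bulk library, fewer cells of a type and less RNA per cell cannot be told apart either. Totals ran from 20158673 to 22388732 reads per library, and 1 read was worth between 0.931 and 1.06 units at d4 and d7.

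TGFβ signals through a pair of receptor kinases that phosphorylate SMAD2 and SMAD3, which enter the nucleus with SMAD4 and switch on matrix, contractile and feedback genes. In mammary epithelial cells the pathway slows the cell cycle and drives the epithelial to mesenchymal transition (EMT), in which transcription factors of the SNAIL, ZEB and TWIST families repress epithelial adhesion genes. HMLE cells carry a viral large T antigen, a protein that binds p53 and the retinoblastoma protein.

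The third d7 library, by its place in the deposited table, lay apart from the other d7 libraries. Distance was taken as the root mean square of the log2 difference over the 13365 genes. The first 2 d7 libraries were 0.22 apart, and the d4 libraries were 0.22 to 0.23 apart. The third d7 library was 0.47 and 0.46 from them, and 0.44 to 0.45 from the d4 libraries. It therefore stood as far from its own group as from d4, while the first 2 d7 libraries stood 0.54 to 0.55 from every d4 library. Against the means of the other timepoints, the third d7 library was nearest to d4, at 0.42, and to day 20, at 0.43. The first 2 were 0.50 and 0.52 from day 15, and 0.53 and 0.52 from d4. No pair of the 6 libraries was a duplicate, since counts differed by at least 2.11 times the sampling variance. The share of reads in the 10 most abundant genes was 11.9% and 11.4% in the first 2 d7 libraries, 9.89% in the third, and 10.5% to 10.7% at d4. The role of a sampling day, a label or a handling difference in this library was not tested, and counts of gene lists are given with all 6 libraries and again without the third d7 library. Differences of single genes are given with 6 libraries, and again without the third mostly where that library changed the call. For some genes that passed only without the third library, only the difference without it is given.

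**Figure D1:**
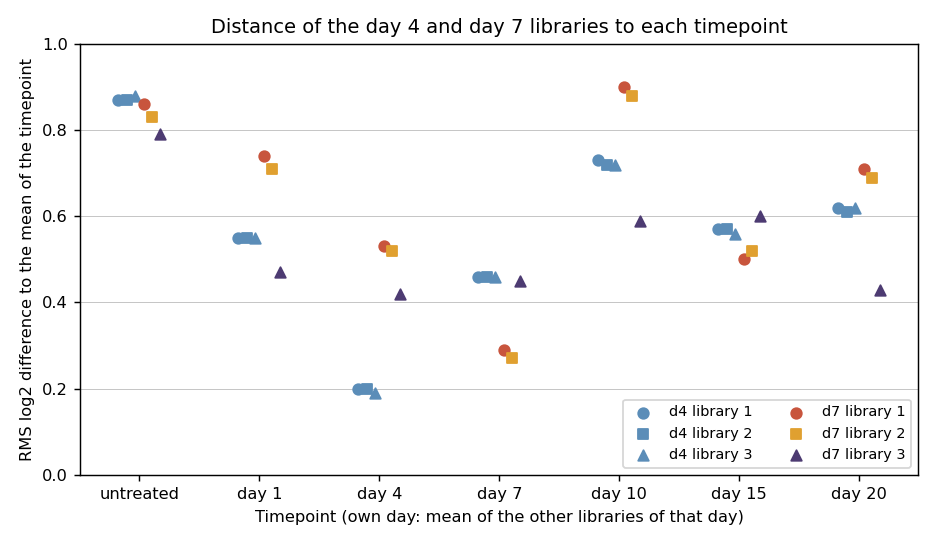
Root mean square log2 difference (y axis) between each of the 6 libraries and the mean of each timepoint (x axis), over 13365 genes. For its own day a library is set against the other libraries of that day. The third d7 library (violet triangle) was 0.45 from the other d7 libraries and 0.42 from the d4 mean, while d7 libraries 1 and 2 were 0.53 and 0.52 from the d4 mean.

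With all 6 libraries, 1961 genes (14.7%) rose and 2202 (16.5%) fell from d4 to d7 at an adjusted p under 0.05 in limma with Benjamini-Hochberg adjustment. Of these, 233 (1.74%) rose and 180 (1.35%) fell at least 2-fold. Without the third d7 library, 3879 genes (29.0%) rose and 3965 (29.7%) fell, and 497 (3.72%) rose and 287 (2.15%) fell at least 2-fold. Leaving out the first or the second d7 library instead turned the balance of the 2-fold calls, to 130 higher and 165 lower and to 122 and 148, and leaving out a d4 library took all calls from 4163 to between 1904 and 1974. Differences are d7 minus d4 on log2(value + 1), with the standard error after ±, and their median over all genes was 0.01 with 6 libraries. The values of 6488 genes (48.5%) did not overlap between the 3 d4 and 3 d7 libraries. Among the 784 genes that moved at least 2-fold without the third d7 library, that library held a median of 31.6% of the log2 difference from the d4 mean for the genes that rose and 51% for those that fell, given as a description, since both differences share the d4 mean. Of the 4163 genes called with 6 libraries, 4155 were also called, with the same sign, without the third. Each gene list below is read against the shares of all genes.

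**Figure D2:**
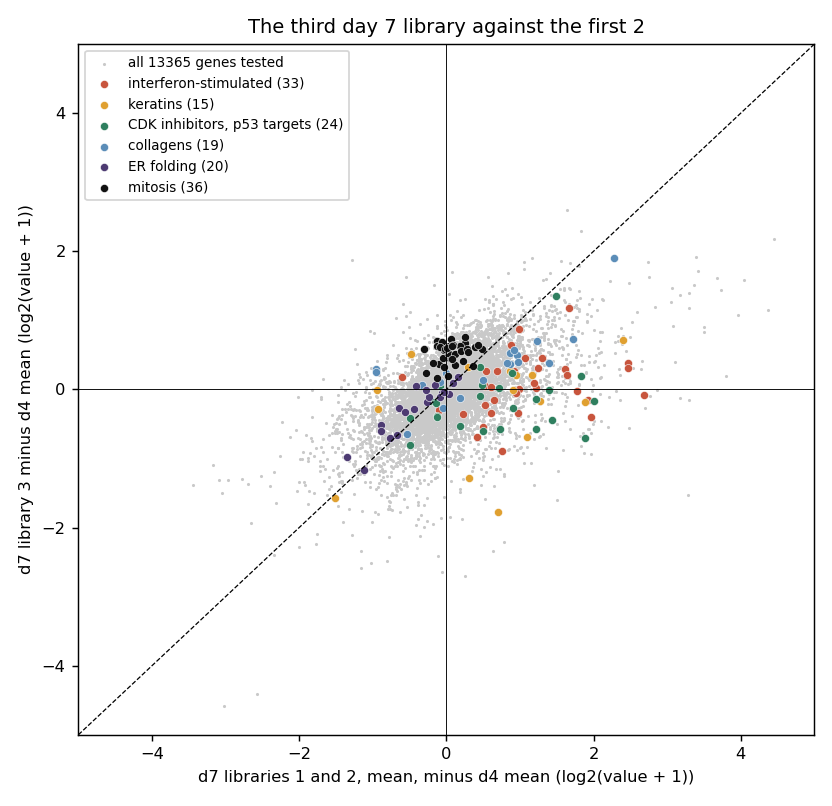
Log2 difference from the d4 mean in the third d7 library (y axis) against the mean of d7 libraries 1 and 2 (x axis), 1 point per gene for 13365 genes, with 6 gene lists coloured and the dashed line marking equal differences. The median on the y axis is 0.37 for collagens and -0.15 for endoplasmic reticulum genes, and 0.03 for interferon-stimulated genes, -0.01 for keratins and -0.18 for kinase inhibitors and p53 targets, with members of these last 3 lists on both sides of 0.

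The libraries held the markers of a basal mammary line. *KRT5*, the basal keratin, was between 126682 and 298352 in the 6 libraries, and *TP63*, the basal transcription factor, was between 5381 and 6554. Of 16 basal markers 15 had enough reads to be tested, and 8 rose and 3 fell with 6 libraries (10 and 4 without the third d7 library). Luminal markers were partly present, with 9 of 15 tested, of which 2 rose and 2 fell (6 and 2 without the third). *PGR*, the progesterone receptor, *ELF5* and *KIT* were at 0 reads in all 6 libraries, whereas *KRT18*, a simple keratin of luminal cells, was between 2758 and 5457, and *GATA3*, a luminal transcription factor, was between 249 and 358. Of 20 markers of blood, endothelial, fat and nerve cells, 8 had enough reads to be tested (*CD14*, *CD68*, *LYZ*, *PECAM1*, *KDR*, *SYT1*, *MYH11* and *PMEL*), of which 1 rose and 1 fell with 6 libraries and 2 rose and 1 fell without the third. *CD68*, a lysosomal protein abundant in macrophages, was 806, 818 and 786 at d4 and 693, 641 and 547 at d7 (-0.36 ± 0.09, adjusted p = 0.0212), and *SYT1*, a synaptic vesicle protein, was between 603 and 678. *KDR*, an endothelial receptor, was 71.5, 69.1 and 56.8 at d4 and 229, 197 and 43.7 at d7, and rose only without the third library (1.68 ± 0.14, adjusted p = 1.16e-15). *MYH11*, a smooth muscle myosin, was 32.6, 35.1 and 32.3 at d4 and 62.3, 59.4 and 50.3 at d7 (0.76 ± 0.16, adjusted p = 0.0117). The part of other cells in any result was not tested. The erythroid *HBB* and the endothelial *CDH5* were at 0 in all 6 libraries. *PTPRC*, the pan-leukocyte CD45 gene, did not exceed 1.04.

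Among genes with a mean of at least 50 at d4 or d7, the top increases that kept the groups apart included signalling, cytoskeletal and cell surface genes. *INPP5D*, which encodes the SHIP1 lipid phosphatase best known from blood cells, was 471, 459.6 and 473 in the d4 libraries and 5402, 5169 and 876 in the d7 libraries. All d7 values exceeded all d4 values, but the third d7 library was far below the other pair. The difference was 2.63 ± 0.63 (adjusted p = 0.0182), and 3.49 ± 0.05 (adjusted p = 6.96e-53) without that library. *EPPK1*, a plakin that binds keratin filaments, went from 33.6, 29.2 and 27.4 to 560.4, 459.8 and 92.1, a difference of 3.22 ± 0.61 (adjusted p = 0.00768), and of 4.04 ± 0.15 (adjusted p = 6.28e-32) without that library. *RTN1*, a reticulon of the endoplasmic reticulum, rested on 3 or 4 reads in each d4 library and reached 101, 89.7 and 9.31 at d7. The other genes in this group were *LOC284837*, *NCRNA00086*, *EPHA3* (an ephrin receptor), *FRMPD2* (a scaffold protein), *WDR63*, *CDH10* (a cadherin), *CYFIP2* (a subunit of the WAVE actin regulator), *SYNC* (an intermediate filament protein) and *MXRA5* (a matrix protein). In all 12 the third d7 library was the lowest of the d7 libraries. That it lay above every d4 library was a condition for naming these genes. Any of them with a d4 mean below 50 was named through its d7 values alone.

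The top decreases held genes on which the d7 libraries were alike and genes on which the third stood apart. *CSF3*, the granulocyte growth factor, was 232, 384 and 298 at d4 and 67.5, 50 and 55.8 at d7, a difference of -2.36 ± 0.20 (adjusted p = 0.000567). *HSD17B2*, an enzyme that oxidises estradiol, was 71.5, 66.2 and 63.6 at d4 and 13.7, 18.8 and 13 at d7, a difference of -2.09 ± 0.20 (adjusted p = 0.000795). *NR1D1*, the circadian repressor REV-ERBα, was 1067, 936 and 923 at d4 and 309, 261 and 206 at d7, a difference of -1.93 ± 0.14 (adjusted p = 0.000401). In these 3 genes the third d7 library was within or below the range of the other pair. *TFPI2*, an inhibitor of serine proteases, was 407, 412 and 389.7 at d4 and 47.5, 48.0 and 142 at d7, so the third library fell less far. The difference was -2.53 ± 0.39 (adjusted p = 0.00359). *RAPGEF3*, a cAMP-responsive exchange factor, differed by -2.41 ± 0.23 (adjusted p = 0.00072), *CYP27B1*, which makes active vitamin D, by -1.96 ± 0.29 (adjusted p = 0.00316), and *ADAM8*, a membrane protease, by -2.07 ± 0.33 (adjusted p = 0.00434). *SH2D2A*, a signalling adaptor, was 359, 334 and 394 at d4 and 34.8, 43.8 and 168 at d7 (-2.48 ± 0.52, adjusted p = 0.011, against -3.18 ± 0.12, adjusted p = 4.68e-31 without the third). *MYH16*, a myosin heavy chain pseudogene, was 361, 379.8 and 381 at d4 and 43.3, 66.7 and 152 at d7 (-2.28 ± 0.39, adjusted p = 0.00535, against -2.77 ± 0.12, adjusted p = 3.15e-28). In both, the third d7 library fell least. The RNA components *RMRP* and *RPPH1* of 2 ribonucleases also passed the test, but 1 d4 library stood far below the others, with *RMRP* at 247, 293 and 18.6 in the d4 libraries and 15.8, 10.4 and 3.72 at d7.

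Collagens, the fibres and networks of the extracellular matrix, were mostly higher at d7. Of 19 collagen genes tested, 10 rose and 1 fell, with a median difference of 0.68, and 12 rose and 5 fell without the third d7 library. The list median was 0.81 in each of the first 2 d7 libraries and 0.37 in the third. *COL5A1*, which nucleates fibrils, was 5.26, 2.92 and 7.83 at d4 and 31.7, 25 and 21.4 at d7, so the groups were well apart on few reads. The difference was 2.15 ± 0.36 (adjusted p = 0.00506), given as a description, since this gene reached a mean of 10 only through its d7 values. *COL1A1*, the main fibril collagen, was 3874, 4045 and 4248 at d4 and 7469, 7251 and 5859.9 at d7, a difference of 0.75 ± 0.09 (adjusted p = 0.00195). *COL3A1* differed by 1.39 ± 0.38 (adjusted p = 0.0304), *COL1A2* by 1.05 ± 0.17 (adjusted p = 0.00436) and *COL6A1*, a microfibril collagen, by 1.05 ± 0.27 (adjusted p = 0.0225). *COL13A1*, a membrane collagen, fell, by 0.57 on the log2 scale. *COL8A1* was 245, 249 and 237 at d4, 134 and 118 in the first 2 d7 libraries and 290.4 in the third, so its d7 libraries lay on both sides of d4. It fell only without the third library (-0.95 ± 0.11, adjusted p = 3.01e-11).

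Matricellular and matrix-modifying genes moved the same way, with 12 of 23 higher and 1 lower, a median difference of 0.36, and 16 higher and 3 lower without the third d7 library. *CTGF*, a secreted SMAD and YAP target, was 1229, 1317 and 1339.5 at d4 and 3321, 2956 and 2636 at d7. The groups did not overlap, and the difference was 1.19 ± 0.09 (adjusted p = 0.000383). *FBLN5*, which helps assemble elastic fibres, rose from 103 ± 7.13 (SD, n = 3) to 251 ± 24.1, a difference of 1.27 ± 0.11 (adjusted p = 0.000657). *FBN2*, a fibrillin, differed by 1.53 ± 0.25 (adjusted p = 0.00478) and *BGN*, a small proteoglycan, by 1.43 ± 0.26 (adjusted p = 0.00638). *TNC*, an anti-adhesive glycoprotein, was 2076, 2126 and 2124 at d4 and 4896, 4789.5 and 3116 at d7 (0.99 ± 0.16, adjusted p = 0.0044). *LOX*, the enzyme that cross-links collagen, differed by 0.90 ± 0.11 (adjusted p = 0.00178). *P4HA1*, a subunit of the collagen prolyl hydroxylase, was the member that fell, by 0.45 on the log2 scale. *TGFBI*, a TGFβ-induced adhesion protein, was 307327, 303407 and 303811 at d4 and 461755, 447326 and 275794 at d7. It passed the test only without the third d7 library (0.58 ± 0.05, adjusted p = 7.44e-16, against 0.34 ± 0.21, adjusted p = 0.246).

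Laminin genes of the hemidesmosome anchor fell. *LAMA3* was 156187, 154139 and 160089 at d4 and 74383, 72666 and 72726 at d7, and the third d7 library did not stand apart. The difference was -1.10 ± 0.08 (adjusted p = 0.000367). *LAMB3* was 118152, 124741 and 116829 at d4 and 61087, 56341 and 60589.8 at d7 (-1.02 ± 0.08, adjusted p = 0.000446). Over all 12 laminin, nidogen and basement membrane genes tested, 4 rose and 4 fell, and 7 rose and 4 fell without the third d7 library. The members that rose with 6 libraries were *LAMA5*, *LAMA1* and the proteoglycans *AGRN* and *HSPG2*, by 0.38, 0.24, 0.37 and 0.28 on the log2 scale.

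Integrins, the matrix receptors, fell or did not pass the test with 6 libraries. Of 13 tested, 8 fell and none rose, with a median difference of -0.36, and 10 fell and 1 rose without the third. The list median was -0.21 in the third d7 library and -0.43 and -0.49 in the others. *ITGB3*, the β3 chain of vitronectin receptors, was 38.9, 34.1 and 39.2 at d4 and 17.9, 11.5 and 17.7 at d7 (-1.22 ± 0.24, adjusted p = 0.0084). *ITGA2*, a collagen receptor chain, was 3356, 3503 and 3684 at d4 and 2028, 2097 and 3026 at d7 (-0.58 ± 0.14, adjusted p = 0.0199). *ITGA6*, the laminin receptor chain of hemidesmosomes, was 21873, 20788 and 22029 at d4 and 16319, 16874 and 16338 at d7 (-0.38 ± 0.05, adjusted p = 0.00282). *ITGAV*, the shared αV chain, was 10171 ± 211 (SD, n = 3) at d4 and 10536 ± 800.4 at d7, and rose only without the third library (0.11 ± 0.04, adjusted p = 0.0112).

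Of 18 matrix proteases, plasminogen genes and inhibitors, 8 fell and 1 rose with 6 libraries, and 11 fell and 5 rose without the third. *MMP9*, the gelatinase, was 8487, 7824 and 8478 at d4 and 1280.1, 1259 and 3189 at d7. All d7 libraries were below d4 and the third fell least, for a difference of -2.26 ± 0.32 (adjusted p = 0.00292) that became -2.70 ± 0.04 (adjusted p = 4.2e-52) without it. *PLAU*, the urokinase, was 12144, 13069.5 and 12403 at d4 and 5462, 4930.3 and 5937 at d7 (-1.21 ± 0.07, adjusted p = 0.000236). Its receptor *PLAUR* differed by -0.90 ± 0.08 (adjusted p = 0.000592), and *SERPINE2*, a serine protease inhibitor, by -0.89 ± 0.06 (adjusted p = 0.000236). *ADAM19*, a membrane protease, differed by -1.21 ± 0.23 (adjusted p = 0.00755). *MMP2*, the other gelatinase, was the member that rose with 6 libraries, by 0.23 on the log2 scale. The protease *ADAM12* was 34.7, 49.7 and 59.7 at d4, 30.6 and 31.3 in the first 2 d7 libraries and 112 in the third, and its difference changed sign with that library (0.02 ± 0.49, adjusted p = 0.976, against -0.58 ± 0.23, adjusted p = 0.0232).

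Several contractile genes of smooth muscle type rose. *TAGLN*, an actin-binding TGFβ target, was 814, 765 and 748 at d4 and 3229, 3154 and 1723 at d7, all above d4. The difference was 1.74 ± 0.22 (adjusted p = 0.00197). *MYL9*, a myosin light chain, was 131, 156 and 142 at d4 and 348, 363 and 251 at d7 (1.14 ± 0.15, adjusted p = 0.00233), and *MYLK*, its kinase, was 427, 449 and 487 at d4 and 796, 855 and 832 at d7 (0.87 ± 0.07, adjusted p = 0.000536). *ACTA2*, smooth muscle actin, was 658, 625 and 619 at d4 and 838, 833 and 543 at d7. It passed the test only without the third library (0.40 ± 0.06, adjusted p = 1.09e-07, against 0.19 ± 0.16, adjusted p = 0.394, with 6 libraries). Of the 22 actin, contractile and focal adhesion genes, 7 rose and 2 fell with 6 libraries, whereas 10 rose and 8 fell without the third. *CNN3*, a calponin, was among those that fell (-0.26 ± 0.08, adjusted p = 0.04).

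**Figure D3:**
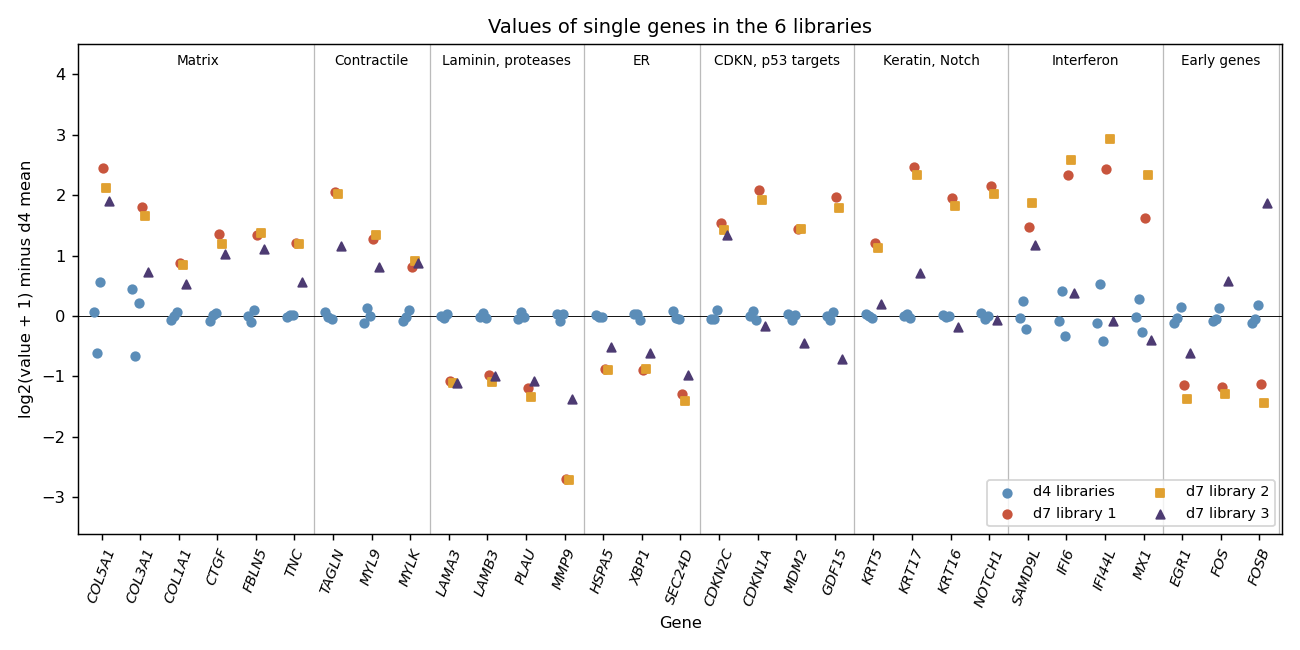
Values of single genes in the 6 libraries as log2(value + 1) minus the d4 mean (y axis), grouped by role along the x axis, 1 point per library. Matrix, contractile, laminin, protease and endoplasmic reticulum genes show 3 d7 libraries on 1 side of d4, whereas *CDKN1A*, *KRT16*, *NOTCH1*, *MX1*, *FOS* and *FOSB* show the third d7 library (violet triangle) at or across the d4 level.

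Among components of the TGFβ pathway itself, more fell than rose from d4 to d7. Of 26 ligands, receptors, SMADs and feedback genes, 13 fell and 2 rose, with a median difference of -0.28, and 15 fell and 3 rose without the third d7 library. The list median was -0.23, -0.29 and -0.31 in the 3 d7 libraries, although the third stood apart on single members. *TGFBR2*, the receptor that binds ligand first, was 2320.0, 2371 and 2371 at d4 and 1814, 1806 and 2095 at d7 (-0.31 ± 0.07, adjusted p = 0.0135), whereas *TGFBR1* was 1290.2 ± 21.9 (SD, n = 3) at d4 and 1154 ± 211 at d7 (-0.18 ± 0.13, adjusted p = 0.314). *SMAD2* was 2225, 2223 and 2225 at d4 and 1895, 1805 and 1792 at d7 (-0.28 ± 0.05, adjusted p = 0.00524), and *SMAD4*, the shared partner, differed by -0.27 ± 0.05 (adjusted p = 0.00892). *SMAD3* was 1773, 1831 and 1876 at d4 and 1113, 1030.0 and 1740.5 at d7, so the third library was close to d4 and the gene passed only without it (-0.77 ± 0.05, adjusted p = 8.65e-21, against -0.54 ± 0.18, adjusted p = 0.0534).

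Several negative regulators fell. *SMURF1*, a ubiquitin ligase for receptors and SMADs, was 3249.7, 3213 and 3316 at d4 and 2058, 1832 and 1915 at d7 (-0.75 ± 0.06, adjusted p = 0.000401). *SKIL*, a SMAD corepressor, differed by -0.49 ± 0.05 (adjusted p = 0.00116), *SMAD7*, the inhibitory SMAD, by -0.34 ± 0.07 (adjusted p = 0.0128), *PMEPA1* by -0.46 ± 0.12 (adjusted p = 0.0229) and the pseudoreceptor *BAMBI* by -0.84 ± 0.19 (adjusted p = 0.0154). Among ligands, *INHBA*, the activin A subunit, was 3906, 4004 and 3927 at d4 and 1946, 1709 and 2640.5 at d7 (-0.94 ± 0.14, adjusted p = 0.00349), and *TGFB1* differed by -0.25 ± 0.05 (adjusted p = 0.00699). The 2 members that rose were *ID3*, an inhibitor of helix-loop-helix factors, from 1155, 1168 and 1165 to 2304, 2207 and 1908 (0.87 ± 0.07, adjusted p = 0.000577), and *LTBP1*, which stores latent TGFβ in the matrix (0.69 ± 0.13, adjusted p = 0.00863).

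Of 11 EMT transcription factors, 8 had enough reads to be tested, of which 1 rose and 1 fell with 6 libraries, and 1 rose and 3 fell without the third. *SNAI1* did not exceed 2.94 in any of the 6 libraries, *PRRX1* did not exceed 1.06 and *GSC* was at 0 in all 6. *SNAI2*, the SLUG factor, was 8398, 8209.6 and 8154 at d4 and 5578, 5211 and 6126 at d7, with no overlap (-0.55 ± 0.07, adjusted p = 0.00168). *TCF4* was the member that rose (0.42 ± 0.10, adjusted p = 0.0154). *ZEB1* was 68.4, 65.2 and 60.7 at d4 and 36.9, 35.5 and 69.8 at d7, and fell only without the third library (-0.82 ± 0.19, adjusted p = 0.000233, against -0.51 ± 0.26, adjusted p = 0.173). *TWIST2* likewise passed only without it (-0.51 ± 0.13, adjusted p = 0.000741). *ZEB2* was 36.3 ± 5.77 (SD, n = 3) at d4 and 42.3 ± 10 at d7, *TWIST1* 264 ± 7.45 and 234 ± 9.34, *FOXC2* 18.4 ± 3.17 and 16.9 ± 4.74, and *KLF8* 432 ± 25.9 and 423 ± 95.7, and none of these passed in either fit.

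Of 15 mesenchymal markers, 3 (20%) rose and 2 (13.3%) fell with 6 libraries. Without the third, 5 (33.3%) rose and 5 (33.3%) fell. In both fits these were near the shares of all genes. *FN1*, fibronectin, was 425548, 431155 and 441115 at d4 and 428804, 395781 and 481598 at d7, with overlapping groups and an adjusted p of 0.981. *VIM*, vimentin, was 43565, 43040.3 and 43152 at d4 and 31030.1, 30181 and 42311 at d7 (-0.34 ± 0.13, adjusted p = 0.0753), and fell without the third library (-0.50 ± 0.04, adjusted p = 6.56e-18). *CDH2*, N-cadherin, was 71.3 ± 8.86 (SD, n = 3) at d4 and 79.8 ± 23.3 at d7 (adjusted p = 0.679). The members that rose were *TNC* (above), *POSTN*, a matricellular protein that went from 114, 113 and 119 to 171, 199 and 186 (0.68 ± 0.10, adjusted p = 0.00357), and *CALD1*, an actomyosin regulator (0.21 ± 0.06, adjusted p = 0.0311). The membrane protease *FAP* was among those that fell (-0.25 ± 0.08, adjusted p = 0.0493). *SPARC*, *S100A4*, *THY1*, *FSTL1* and *PDGFRB* did not pass with 6 libraries, with differences of -0.21, 0.05, 0.30, 0.05 and 0.24. *DCN*, *LUM* and *PDGFRA* had too few reads to be tested. *CDH11*, a mesenchymal cadherin, was 179.8, 202 and 195 at d4, 126 and 136 in the first 2 d7 libraries and 595 in the third. Its difference was 0.17 ± 0.53 (adjusted p = 0.828) with 6 libraries and -0.55 ± 0.11 (adjusted p = 3.49e-05) without the third.

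Of 17 epithelial transcription, splicing and surface genes, 3 (17.6%) rose and 4 (23.5%) fell, near the shares of all genes, and 7 rose and 5 fell without the third d7 library. *CDH1*, E-cadherin, was 5764, 5576 and 5544 at d4 and 7923, 7599 and 6239.6 at d7, all above d4 (0.36 ± 0.09, adjusted p = 0.0208). *EPCAM* was 609, 520.0 and 565 at d4 and 263, 273 and 355 at d7, all below d4 (-0.94 ± 0.13, adjusted p = 0.00235). *ELF3*, an epithelial ETS factor, differed by -1.42 ± 0.17 (adjusted p = 0.0017). *GRHL3*, which promotes epidermal differentiation, was 29.4, 36.0 and 29.4 at d4, 81.3 and 85.5 in the first 2 d7 libraries and 27.0 in the third, and rose only without that library (1.38 ± 0.20, adjusted p = 4.25e-08). Of 15 tight junction and polarity genes, 5 fell and 1 rose with 6 libraries, whereas 7 fell and 5 rose without the third. Among those that fell were *CLDN7* and *CLDN4*, claudins of the paracellular seal, at -0.86 ± 0.13 (adjusted p = 0.00338) and -0.55 ± 0.10 (adjusted p = 0.00613).

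Keratins and desmosome genes showed the split among the d7 libraries at high counts. Of 15 keratins tested, 5 rose and 2 fell with 6 libraries, and 11 rose and 4 fell without the third. The list median was 0.86 in both of the first 2 d7 libraries and -0.01 in the third. *KRT17*, a keratin of stressed and basal epithelium, was 33397, 34185 and 32934 at d4 and 184224, 169632 and 55169 at d7. All 3 d7 libraries were above d4, the third by far the least (1.84 ± 0.41, adjusted p = 0.0145, against 2.40 ± 0.04, adjusted p = 1.1e-49 without it). *KRT5* was 132324, 129346 and 126682 at d4 and 298352, 281986 and 149134 at d7 (0.84 ± 0.25, adjusted p = 0.0372). *KRT16*, a wound keratin, was 4035, 3925 and 3999.9 at d4 and 15422, 14111 and 3515 at d7, so the third library lay below d4 (1.20 ± 0.50, adjusted p = 0.105, against 1.89 ± 0.04, adjusted p = 4.14e-45).

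2 keratins behaved alike in all d7 libraries. *KRT81*, a hair keratin, was 346, 375 and 306 at d4 and 111, 128 and 114 at d7 (-1.53 ± 0.11, adjusted p = 0.000383), and *KRT8*, a simple keratin, was 6617, 6478 and 6457 at d4 and 8227, 7711 and 8148 at d7 (0.30 ± 0.05, adjusted p = 0.00469). Of 15 desmosome and hemidesmosome genes, 2 rose and 1 fell with 6 libraries, and 9 rose and 3 fell without the third. *DST*, the plakin of hemidesmosomes, was 8943, 8875 and 9279.7 at d4 and 20037, 20534 and 12219 at d7 (0.92 ± 0.18, adjusted p = 0.00933), and *PKP1*, a plakophilin, differed by 0.61 ± 0.15 (adjusted p = 0.0197). *DSG3*, a desmosomal cadherin, was 7525, 7134 and 7088 at d4 and 14194, 13821 and 5694 at d7, and rose only without the third library (0.95 ± 0.04, adjusted p = 8.86e-31). None of 12 cornified envelope genes passed with 6 libraries, and 7 rose without the third, in which their median was -0.81 against 0.62 and 0.40 in the others. *SBSN*, a secreted epidermal protein, was 33.6, 30.2 and 25.5 at d4, 50.6 and 52.1 in the first 2 d7 libraries and 5.58 in the third. Its difference was -0.22 ± 0.75 (adjusted p = 0.845) with 6 libraries and 0.78 ± 0.23 (adjusted p = 0.00265) without the third.

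Of 21 WNT and Notch genes, 6 rose and 4 fell with 6 libraries, and 11 rose and 6 fell without the third. *NOTCH1*, a receptor that acts in epithelial differentiation, was 1791, 1669 and 1731 at d4, 7660.4 and 7044 in the first 2 d7 libraries and 1655 in the third. The difference was 1.37 ± 0.52 (adjusted p = 0.0812) with 6 libraries and 2.09 ± 0.04 (adjusted p = 4.14e-45) without the third. *NOTCH3* was 1045, 1115 and 1120.2 at d4 and 2973, 2634 and 609 at d7, and rose only without the third library (1.36 ± 0.05, adjusted p = 4.7e-32). *NOTCH2* was 4818, 4905 and 4832 at d4 and 5706, 5368 and 6578 at d7, highest in the third library (0.27 ± 0.08, adjusted p = 0.0313). In contrast *HEY1*, a NOTCH target gene, was 97.8, 63.3 and 82.2 at d4 and 33.8, 37.5 and 45.6 at d7, lower in all 3 (-1.03 ± 0.20, adjusted p = 0.00951). The ligand *WNT7A* also fell in all 3 (-1.09 ± 0.15, adjusted p = 0.00231).

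**Figure D4:**
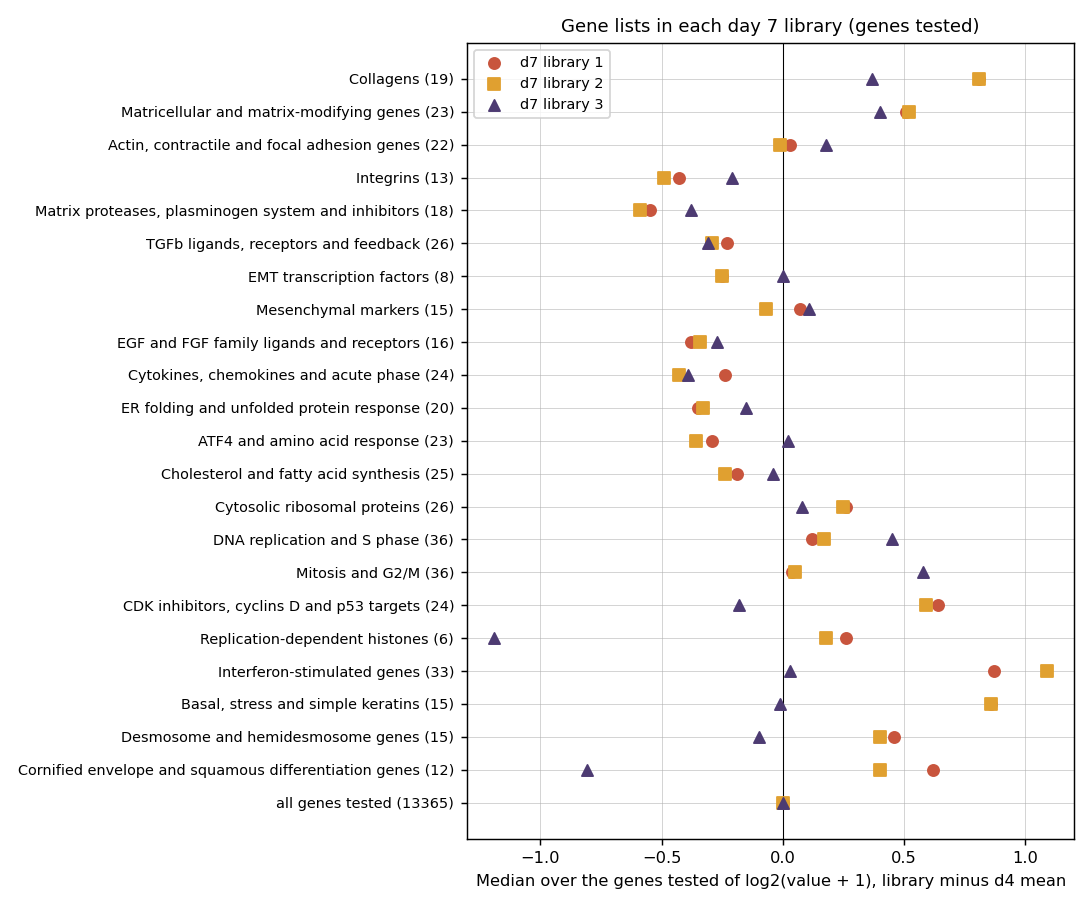
Median log2 difference from the d4 mean (x axis) in each d7 library for 22 gene lists and for all genes tested (y axis, genes tested in parentheses). The 3 libraries sit on 1 side of 0 for collagens, integrins, proteases, TGFβ pathway and endoplasmic reticulum genes, whereas the medians of interferon-stimulated genes, keratins, p53 targets, histones and cornified envelope genes are near or below 0 in the third library (violet triangle).

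Interferon-stimulated genes, which type I interferon switches on, were, of the 36 lists, the one with the highest share of members that rose without the third library. Of 33 tested, 12 (36.4%) rose and none fell with 6 libraries, with a median difference of 0.70. Without the third library 31 (93.9%) rose and 1 fell, with a median of 0.98. The list median was 0.87 and 1.09 in the first 2 d7 libraries and 0.03 in the third. *IFI6*, a mitochondrial survival protein, was 188, 266 and 159.6 at d4 and 1016, 1203 and 259.7 at d7, so the third library overlapped d4 (1.77 ± 0.53, adjusted p = 0.0401, against 2.46 ± 0.10, adjusted p = 1.26e-29). *IFI44L* was 71.5, 113 and 57.8 at d4 and 424, 598 and 73.5 at d7, and passed only without the third library (1.76 ± 0.71, adjusted p = 0.0948, against 2.68 ± 0.15, adjusted p = 7.26e-24). *MX1*, an antiviral GTPase, was 158, 195 and 133 at d4 and 492, 807 and 121 at d7, with the third library below every d4 library (1.18 ± 0.61, adjusted p = 0.173, against 1.97 ± 0.12, adjusted p = 4.32e-22).

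Some members rose in all 3 d7 libraries. *SAMD9L*, a growth-restraining antiviral protein, was 105, 129 and 92.0 at d4 and 299, 396 and 245 at d7 (1.5 ± 0.20, adjusted p = 0.0021), and its paralog *SAMD9* was 427, 454 and 459 at d4 and 846, 930.0 and 816 at d7 (0.95 ± 0.07, adjusted p = 0.000415). *IFI35* and *PARP9* differed by 0.80 ± 0.11 (adjusted p = 0.00257) and 0.86 ± 0.17 (adjusted p = 0.00917). *ISG20*, an exonuclease, was the member that fell without the third library (-0.60 ± 0.14, adjusted p = 0.000137), from 142, 152 and 137 to 109.8 and 81.3. *IRF1* did not pass in either fit. Outside the list, 3 of 13 MHC class I presentation genes rose with 6 libraries (7 rose and 1 fell without the third), among them *NLRC5*, the class I transactivator (0.97 ± 0.12, adjusted p = 0.00204).

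Sequences before the gene starts were searched for the core of the interferon-stimulated response element, GAAA followed by any 2 bases and GAAA again, on both strands of the 250 bases before the first start listed by RefSeq (GRCh38.p14). The motif was in 15 of the 26 tested members with a promoter (57.7%) and in 839 of all 27305 promoters (3.07%). A match is a description of the letters and not evidence of binding. Shown are 2 members on which the third d7 library overlapped d4, 1 that rose in all 3 d7 libraries and the 1 that fell without the third, 5′ to 3′ on the gene's strand, with the match nearest to the start in capitals. The 250 bases held 3 matches in IFI6, 2 in IFI44L and 1 each in SAMD9 and ISG20, and other matches that fall within a printed stretch are left in lower case. They are IFI6 (chr1:27672251-27672310, minus strand), IFI44L (chr1:78620350-78620409, plus strand), SAMD9 (chr7:93118081-93118140, minus strand) and ISG20 (chr15:88638922-88638981, plus strand), with the capitals beginning 93, 73, 136 and 69 bases before the start.
IFI6: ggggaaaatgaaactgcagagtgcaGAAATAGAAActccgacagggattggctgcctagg
IFI44L: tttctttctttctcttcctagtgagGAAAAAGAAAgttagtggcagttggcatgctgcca
SAMD9: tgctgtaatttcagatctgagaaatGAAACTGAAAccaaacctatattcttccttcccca
ISG20: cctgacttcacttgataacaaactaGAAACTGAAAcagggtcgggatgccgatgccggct

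Genes of protein folding in the endoplasmic reticulum (ER) fell, and none rose. Of 20 tested, 11 fell with 6 libraries, with a median difference of -0.25, and 15 fell without the third. *HSPA5*, the chaperone BiP, was 21114, 20696 and 20716 at d4 and 11301, 11289 and 14538 at d7, with no overlap (-0.76 ± 0.10, adjusted p = 0.00222). *XBP1*, the transcription factor of the unfolded protein response, was 3316, 3308 and 3074 at d4 and 1733, 1762 and 2119 at d7 (-0.79 ± 0.08, adjusted p = 0.00106). *DNAJB9*, a cochaperone, was 676, 657 and 655 at d4 and 289, 322 and 293 at d7 (-1.14 ± 0.07, adjusted p = 0.000236). *SEC24D*, a coat subunit of vesicles leaving the ER, differed by -1.22 ± 0.11 (adjusted p = 0.000592), *HERPUD1*, of ER-associated degradation, by -0.75 ± 0.06 (adjusted p = 0.000511), and the chaperones *HSP90B1* and *CANX* by -0.52 ± 0.10 (adjusted p = 0.00955) and -0.38 ± 0.06 (adjusted p = 0.00469). *CALR* and *P4HB*, of the same compartment, did not pass, with differences of -0.06 and -0.04.

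The ER stress response element, CCAAT and CCACG with any 9 bases between them, was searched in the same way. It was in 6 of 18 members with a promoter (33.3%) and in 22 of all 27305 promoters (0.0806%). The members shown are those that fell among the matches, HSPA5 (chr9:125241366-125241434, minus strand), XBP1 (chr22:28800578-28800646, minus strand), CANX (chr5:179698753-179698821, plus strand) and HSP90B1 (chr12:103930296-103930364, plus strand), the last matching on the opposite strand. HSP90B1 held 2 matches and the others 1, and the match nearest to the start is in capitals.
HSPA5: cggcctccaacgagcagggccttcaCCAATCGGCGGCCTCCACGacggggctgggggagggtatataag
XBP1: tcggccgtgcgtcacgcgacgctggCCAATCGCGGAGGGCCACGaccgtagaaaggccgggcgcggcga
CANX: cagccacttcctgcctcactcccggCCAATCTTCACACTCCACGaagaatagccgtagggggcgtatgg
HSP90B1: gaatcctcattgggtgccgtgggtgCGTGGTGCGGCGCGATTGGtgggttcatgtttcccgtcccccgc
*CALR* and *CRELD2*, which also held the letters, did not pass the test in either fit.

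Inhibitors of cyclin-dependent kinases and p53 targets separated the d7 libraries. Of 24 tested, 4 rose and 3 fell with 6 libraries, and 17 rose and 4 fell without the third, with list medians of 0.64 and 0.59 in the first 2 d7 libraries and -0.18 in the third. *CDKN1A*, the p53-induced kinase inhibitor, was 5413, 5725 and 5163 at d4, 22956 and 20637 in the first 2 d7 libraries and 4839.8 in the third. The difference was 1.28 ± 0.53 (adjusted p = 0.101) with 6 libraries and 2.00 ± 0.04 (adjusted p = 2.76e-45) without the third. *MDM2*, the p53 ubiquitin ligase, was 1450.3, 1359 and 1437 at d4 and 3837, 3839 and 1039 at d7, and *GDF15*, a secreted stress cytokine, was 145, 139 and 152 at d4 and 573, 506 and 88.4 at d7. In these genes the third d7 library was below all d4 libraries. Both passed only without it, at 1.44 ± 0.04 (adjusted p = 7.14e-36) and 1.88 ± 0.10 (adjusted p = 3.33e-25).

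*CDKN2C*, an inhibitor of CDK4 and CDK6, was by contrast 399.6, 399 and 442 at d4 and 1207, 1113 and 1051 at d7, higher in all 3 (1.44 ± 0.08, adjusted p = 0.000201). *CDKN2A* also rose in all 3 (0.41 ± 0.06, adjusted p = 0.0037), and the D cyclins *CCND1* and *CCND2*, which drive CDK4 and CDK6, fell in all 3 (-0.47 ± 0.05, adjusted p = 0.00105, and -0.59 ± 0.09, adjusted p = 0.00336). The p53 targets *BTG2* and *BAX* rose, with the third library much nearer to d4 than the other pair. *BTG2*, an antiproliferative gene, was 728, 722 and 715 at d4 and 2575, 2532 and 823 at d7 (1.28 ± 0.40, adjusted p = 0.044, against 1.82 ± 0.05, adjusted p = 3.54e-38 without the third). *BAX*, a pro-apoptotic gene, was 772, 796 and 747 at d4 and 1405, 1447 and 907 at d7 (0.67 ± 0.17, adjusted p = 0.0208, against 0.89 ± 0.05, adjusted p = 1.68e-21).

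Cell division genes were higher in the third d7 library than in the other d7 and the d4 libraries. Of 36 genes of mitosis, 9 rose and none fell with 6 libraries, whereas 13 rose and 6 fell without the third, and the list median was 0.04 and 0.05 in the first 2 d7 libraries and 0.58 in the third. *MKI67*, the proliferation antigen, was 7273, 7175 and 7589 at d4, 7209.8 and 6834 in the first 2 d7 libraries and 11850.1 in the third (0.19 ± 0.19, adjusted p = 0.478). *CCNB1*, cyclin B1, was 4400.2, 4392 and 4128 at d4 and 3970.0, 3917 and 7006 at d7, and fell without the third library (-0.13 ± 0.04, adjusted p = 0.00538). *TOP2A*, the replication topoisomerase, rose in all 3 (11296, 10364 and 10523 at d4 and 14882, 15159.9 and 16019.8 at d7, 0.52 ± 0.06, adjusted p = 0.00139). Of 36 DNA replication genes, 14 rose and 1 fell with 6 libraries, whereas 16 rose and 9 fell without the third. Among those that rose was *E2F2*, an S phase transcription factor (0.92 ± 0.14, adjusted p = 0.00328). *CCNE1*, cyclin E1, was the member that fell with 6 libraries (-0.60 ± 0.16, adjusted p = 0.0277).

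Of 6 histone genes with enough reads, 1 fell with 6 libraries, *HIST2H2BE* (-1.01 ± 0.21, adjusted p = 0.0106), and 3 rose and 2 fell without the third. The list median was 0.26 and 0.18 in the first 2 d7 libraries and -1.19 in the third. *HIST1H2AC* was 259, 222 and 238 at d4, 377 and 359.7 in the first 2 d7 libraries and 118 in the third.

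Of 24 cytokine, chemokine and acute phase genes, 9 fell and 2 rose with 6 libraries, and 12 fell and 7 rose without the third, where the share that rose (29.2%) was near that of all genes. *IL1B* was 487, 472 and 441 at d4 and 259, 220.0 and 135 at d7 (-1.24 ± 0.22, adjusted p = 0.00588), and *IL1A* was 6508, 7027 and 7128 at d4 and 4603, 4307 and 2006 at d7 (-1.01 ± 0.28, adjusted p = 0.0313, against -0.63 ± 0.04, adjusted p = 8.79e-21 without the third). In both, the third d7 library was the lowest. *SAA2*, an acute phase protein, differed by -0.97 ± 0.15 (adjusted p = 0.00379), and *LIF* and *IL11*, both of the interleukin 6 family, were those that rose with 6 libraries, by 0.77 and 0.30 on the log2 scale. *CXCL14*, a chemokine of epithelia, was 51.5, 42.8 and 43.1 at d4, 413 and 426 in the first 2 d7 libraries and 41.9 in the third (2.07 ± 0.80, adjusted p = 0.0855, against 3.17 ± 0.14, adjusted p = 1.19e-28).

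Of 16 EGF and FGF family genes, which include feedback targets of the ERK kinases, 7 fell and 3 rose, and 10 fell and 5 rose without the third. The feedback genes *SPRY2*, *SPRY4* and *DUSP6* fell, and *DUSP6*, the ERK phosphatase, was 2004, 2325 and 2288 at d4 and 1230.5, 1292 and 394 at d7 (-1.36 ± 0.41, adjusted p = 0.0398, against -0.80 ± 0.05, adjusted p = 3.05e-21 without the third). *SPRY2* differed by -0.97 ± 0.10 (adjusted p = 0.00109). *EGFR* was 10222, 10081 and 10029 at d4 and 8532, 8205 and 7746 at d7 (-0.31 ± 0.05, adjusted p = 0.00572), while the receptors *FGFR3* (1.11 ± 0.21, adjusted p = 0.0085) and *FGFR2* (0.69 ± 0.19, adjusted p = 0.0289) rose. *AREG*, amphiregulin, was 110.4, 107 and 144 at d4 and 379.9, 353 and 114 at d7. It passed only without the third library (1.61 ± 0.11, adjusted p = 7.5e-19, against 1.05 ± 0.43, adjusted p = 0.0973, with 6 libraries).

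Immediate early genes, which growth signals induce within minutes, split by gene. Of 19, 5 rose and 5 fell with 6 libraries, and 8 rose and 8 fell without the third. *EGR1* was 9071, 9582 and 10798 at d4 and 4445, 3769.9 and 6428 at d7, all below d4 (-1.04 ± 0.18, adjusted p = 0.00543), and *JUN* was 3116, 3158 and 3261 at d4 and 5049.6, 5059 and 4307 at d7, all above (0.59 ± 0.07, adjusted p = 0.00171). *FOS* was 1297, 1331 and 1506 at d4, 606 and 559 in the first 2 d7 libraries and 2055 in the third. *FOSB* was 64.2, 67.2 and 79.3 at d4, 31.7 and 25 in the first 2 d7 libraries and 259 in the third. Neither passed with 6 libraries, and both fell without the third (-1.24 ± 0.06, adjusted p = 6.76e-27, and -1.28 ± 0.20, adjusted p = 1.71e-07).

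Glycolytic and hypoxia-responsive genes were divided. Of 28, 9 rose and 7 fell, and 14 rose and 8 fell without the third d7 library. *CA9*, a carbonic anhydrase of hypoxic cells, was 76.8, 62.3 and 69.5 at d4 and 336, 319 and 207 at d7 (2.00 ± 0.19, adjusted p = 0.000848), and *EGLN3*, an oxygen-sensing hydroxylase, was 73.6, 58.4 and 48.0 at d4 and 249, 270.0 and 148 at d7 (1.85 ± 0.25, adjusted p = 0.00256). The same list held *VEGFA*, the angiogenic factor, which was 2767, 2969 and 3128 at d4 and 1576, 1453 and 1649 at d7 (-0.92 ± 0.07, adjusted p = 0.000401), and the glucose transporter *SLC2A3*, which differed by -0.76 ± 0.10 (adjusted p = 0.00207). Glycolytic enzymes among those that rose were *PGK1* and *TPI1*, by 0.60 and 0.51 on the log2 scale.

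Of 25 cholesterol and fatty acid synthesis genes, 8 fell and none rose with 6 libraries, and 17 fell and 1 rose without the third. The list median was -0.19 and -0.24 in the first 2 d7 libraries and -0.04 in the third. *SQLE*, an enzyme of sterol synthesis, was 30913, 28109 and 29834 at d4 and 17612, 18109 and 21054 at d7 (-0.65 ± 0.08, adjusted p = 0.002), and *SCD*, the stearoyl desaturase, differed by -0.53 ± 0.09 (adjusted p = 0.00499). Of 23 ATF4 and amino acid response genes, 8 fell and 1 rose, and 14 fell and 5 rose without the third library. Their median was -0.29 and -0.36 in the first 2 d7 libraries and 0.02 in the third. *ATF4* itself was 11100.4, 10998 and 11000.1 at d4 and 7359, 7313 and 9887 at d7 (-0.45 ± 0.11, adjusted p = 0.0225). Of 26 ribosomal protein genes, 11 rose and none fell, with a median of 0.20, and 23 rose without the third library. The metallothionein *MT2A* was 53539, 60379 and 49847 at d4 and 22923, 20291 and 44658 at d7 (-0.99 ± 0.27, adjusted p = 0.0288).

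The genes on which the third d7 library lay furthest from the other pair were also listed, without a test, for genes averaging 50 or more over the 6 libraries. Above the pair were *FOSB*, *CDH11*, *SH2D2A*, *ADAM12*, *ANGPTL4*, *FOS*, *AKAP12* and *TFPI2*. *AKAP12*, a kinase scaffold, was 929, 833 and 3077 in the d7 libraries and 1747 ± 94.2 (SD, n = 3) at d4, and *ANGPTL4*, a lipase inhibitor, was 261, 243 and 892, with 807 ± 64.0 at d4. Below the pair were *EDN2*, *CXCL14*, *ZNF750*, *PRODH*, *KITLG*, *GPNMB*, *NCRNA00086* and *CEL*. *KITLG*, the KIT ligand, was 1201, 1156 and 160.1 at d7 and 179, 167 and 139 at d4, and *PRODH*, proline dehydrogenase, was 529.8, 514 and 62.4, with 92.4 ± 3.89 at d4. *ZNF750*, an epidermal differentiation factor, was 100.2, 107 and 11.2 at d7 and 36.0 ± 2.43 at d4.

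Set against the other days, the first 2 d7 libraries were near day 15 on several genes named above and the third near day 20 or d4. *INPP5D* averaged 7125 at day 15, 766 at day 20 and 102 at day 10. *CDKN1A* averaged 23196 at day 15 and 5801 at day 20, and *NOTCH1* 7680 and 1249. *KRT17* averaged 186677 at day 15 and 48718 at day 20. For *IFI6* no other day reached the level of the first 2 d7 libraries, since its highest mean elsewhere was 205 ± 55.0 (SD, n = 3) at d4. *CXCL14* was 71.4, 78.7 and 84.9 at day 15, far below the first 2 d7 libraries (413 and 426). *FOSB* was 61.5, 29.5 and 45.0 at day 20, far below the third d7 library (259). *HSPA5* averaged 10590 in untreated cells, 24220 at day 1 and 21458 at day 15, so its d7 values lay between those of untreated cells and of the other treated days.

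**Figure D5:**
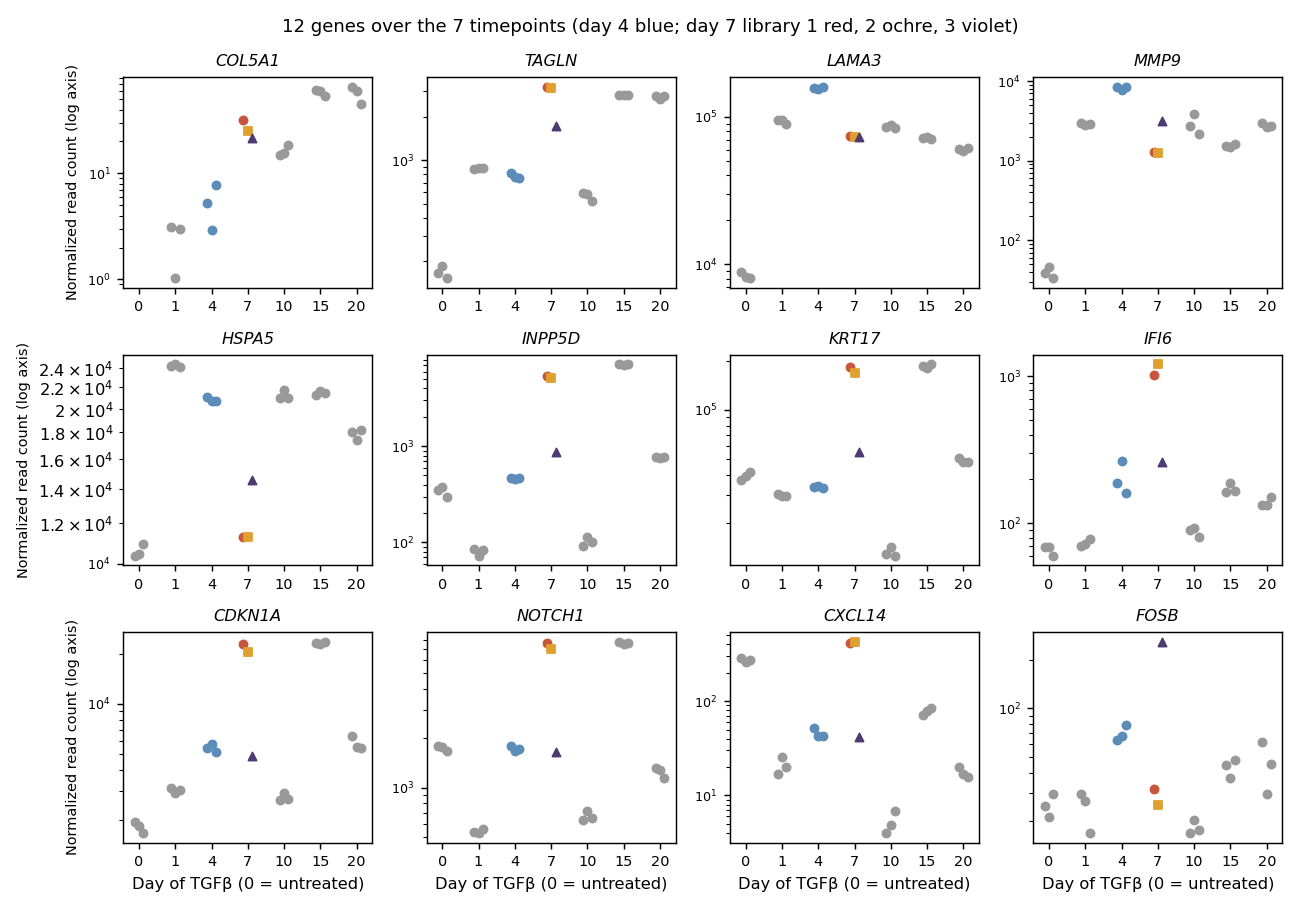
Normalized read count on a log axis (y axis) for 12 genes in all 21 libraries by day of TGFβ (x axis), with d4 in blue, the 3 d7 libraries in red, ochre and violet and other days in grey. Libraries at 0 (*COL5A1* in untreated cells) are not drawn. *LAMA3* has 3 d7 libraries together, with a mean of 73258, while *INPP5D*, *CDKN1A* and *NOTCH1* have d7 libraries 1 and 2 near day 15 and the third far below them.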

How the data were processed

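RNA sequencing of HMLE cells gave 1 table of 21 libraries. The deposited values are a signal on the scale of normalized read counts, which the authors made by dividing the reads of a library by 1 size factor, with 2 decimals kept. The submitters' processing notes name STAR 2.7, Salmon 1.4 and hg19, and the part each played is not given in the sources used here. Library columns were matched to timepoints by their headings, which carry no replicate numbers, so libraries are named by their order in the table. All 100% of values were whole reads after undoing the size factor, within a tolerance of 0.02 reads widened in proportion to the value. For the most abundant genes that tolerance covered any value, so the check could not fail for them.

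Genes averaging at least 10 over the d4 and d7 libraries were fitted in limma 3.58.1 as log2(value + 1) (mean-variance trend, Benjamini-Hochberg adjustment over all 13365 genes) in R 4.3.3, with all 6 libraries and again without the third d7 library. Fold changes on this scale understate those of low genes. Standard errors and p-values rest on the spread between these samples, with each gene's variance drawn towards a trend shared by genes of like level. Without the third d7 library the standard errors follow that trend closely. The very small p-values of that fit therefore do not measure the spread of the single gene. The same limma steps were tried on simulated counts with few changed genes and no library lying apart. That trial cannot show how the fit behaves with the third d7 library. Alternatives were edgeR 4.0.16 and DESeq2 1.42.0 on the recovered reads, other scalings, filters and a pseudocount of 10, library weights, all 21 libraries in 1 fit, and each library left out.

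The comparison, the 36 gene lists and the tests were chosen with earlier results of these data known. Genes are named by rule: the 12 largest increases and decreases with a mean of at least 50 and no overlap, 2 members of each list per direction and by mean, every EMT transcription factor and mesenchymal marker apart from what is not reported here, the 8 genes on which the third d7 library lay furthest above or below the other pair, and 10 per direction without it. List members outside this rule were chosen after their values were seen: *AGRN*, *ATF4*, *BAX*, *BTG2*, *CALR*, *CANX*, *CCNB1*, *CD14*, *CDH5*, *CDKN2A*, *CLDN4*, *COL1A1*, *COL1A2*, *COL6A1*, *CRELD2*, *DSG3*, *ELF5*, *FBLN5*, *FGFR2*, *GATA3*, *GDF15*, *HBB*, *HERPUD1*, *HSPA5*, *HSPG2*, *IFI35*, *IL11*, *IRF1*, *KIT*, *LAMA1*, *LIF*, *LOX*, *LYZ*, *MDM2*, *MMP2*, *MX1*, *MYLK*, *PARP9*, *PECAM1*, *PGK1*, *PGR*, *PLAU*, *PLAUR*, *PMEL*, *PTPRC*, *SAA2*, *SAMD9*, *SAMD9L*, *SERPINE2*, *SKIL*, *SMAD2*, *SMAD3*, *SMAD4*, *SMAD7*, *SMURF1*, *SPRY4*, *TGFBR1*, *TGFBR2*, *TP63* and *TPI1*. Summaries and figures used Python 3.11.15, pandas 2.3.3, numpy 2.4.6 and matplotlib 3.10.9. Some genes are not reported here.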

Additional observations from a re-analysis of the deposited data

How the results depend on the processing

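The counts depended on which libraries entered the fit. Leaving out each library in turn gave 839 to 3879 genes higher and 1056 to 3965 lower at an adjusted p under 0.05 (limma, Benjamini-Hochberg), and 122 to 497 higher and 123 to 287 lower at least 2-fold, with the highest of each without the third d7 library. The d4 libraries and the first 2 d7 libraries each lowered the counts when left out, where fewer samples remained and the third stayed in. Of the 4163 genes called with 6 libraries, 4155 (99.8%) were called with the same sign without the third, and 3689 more were called. Library weights gave 4051 higher and 4096 lower (484 and 278 at least 2-fold). The third d7 library had a weight of 0.116 there, against 0.849 to 2.94 for the others, so this setting came close to leaving it out. All 21 libraries in 1 fit gave 3408 and 3403. edgeR on the reads of 6 libraries gave 2040 and 2165, and DESeq2 1931 and 2094. edgeR with the third d7 library left out, an alternative chosen after seeing the data, gave 3953 and 3907 (516 and 295 at least 2-fold). A pseudocount of 10 left 147 genes higher at least 2-fold. The share of rises among calls of at least 2-fold was 56.4%, and 48.1% after quantile normalization. With 1 library left out it ran from 44.1% (without the first d7 library, 130 higher and 165 lower) to 63.4% (without the third), and it was 45.2% without the second d7 library.

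Of 130 named genes called with 6 libraries, 78 stayed called with every library left out in turn and none changed sign. 3 others, uncalled with 6 libraries, changed sign in a setting that called them, and the cause was not tested. *CCNB1*, named after its values were seen, did so too (0.15, and -0.13 without the third d7 library), and *MKI67*, *CDH2* and *KLF8* changed sign without the third d7 library but passed in neither fit. *CDH11* was -0.46 with library weights and -0.56 in edgeR without the third d7 library, and ran from -0.55 to 0.56 with 1 library left out. *ADAM12* was -0.55 and -0.64, and ran from -0.58 to 0.33. *SBSN* was 0.71 and 0.79, and ran from -0.73 to 0.78. No paired analysis was possible because no replicate number stands in the headings of the table.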
